A study of Mus musculus with 13 samples.

Results

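The genes described here are 34 mouse genes of fatty acid oxidation and ketone body metabolism, chosen by function and grouped by role: 4 regulators, 6 genes of fatty acid activation and the carnitine shuttle, 12 of mitochondrial beta-oxidation, 3 of electron transfer, 7 of peroxisomal beta-oxidation and 2 of ketone bodies. Each gene was read from its probe set with the highest mean log2 level over all 13 arrays. A probe set naming 1 gene alone was found for 32 of the 34, among 18193 genes measured in this way. Acsl1 and Cpt1b had none and were not analysed here as genes. Messenger RNA was measured on Affymetrix arrays in tumours of mir-122 knockout mice, which lack the main microRNA of hepatocytes, and in livers of wild-type mice. All mice had the B6/129 background, which the controls share. There were 3 tumours from knockout mice of 11 months, 5 tumours from knockout mice of 14 months, 2 control livers at 11 months and 3 control livers at 14 months. No knockout liver outside a tumour was measured, so the deletion and the tumour cannot be told apart. The labels do not say whether each tumour is from its own mouse, and tumours 1 and 2 at 14 months carry no number in their titles, so p-values measure the spread between these samples only. Replicate numbers only name the arrays.

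Liver cells burn fatty acids in mitochondria and peroxisomes. Fatty acids are first joined to coenzyme A, and the carnitine shuttle carries long chains across the inner mitochondrial membrane. Each turn of beta-oxidation then uses a dehydrogenase, a hydratase, a second dehydrogenase and a thiolase, and the electrons of the first step pass through the electron transfer flavoprotein to the respiratory chain. Peroxisomes shorten very long and branched chains. During fasting the liver turns surplus acetyl-CoA into ketone bodies for other organs, a programme in which the nuclear receptor PPARA, its coactivator PGC-1alpha and the hormone FGF21 take part.

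Some features of the whole series touch the results. Control 1 at 11 months and control 3 at 14 months were nearly alike (r = 0.995 across probe sets, with 63 probe sets over 2-fold apart, against 485 to 1315 in the other pairs of controls). Calls of the genes described here and totals over all genes are therefore also given without both. Calls of markers and of wider lists are given with all controls only. The labels place the nearly alike controls at different ages and the title of control 3 at 14 months carries no animal number. Whether they are independent animals was not tested, and the SDs and p-values over 5 controls assume that they are. The mean level of 7 cell cycle genes was 6.94 and 6.91 in the nearly alike controls and 5.55 to 5.67 in the other 3, against 5.85 to 9.15 in tumours, and 1 of the 7, Mki67, was higher in tumours (2.07, limma adjusted p = 0.0364). Of 11 hepatocyte markers, 3 were lower in tumours and none higher, with Asgr2, Asgr1 and Fetub passing the test, and their mean level per array was 11.98 to 12.91 in tumours against 12.79 to 12.95 in controls. Alb, the plasma albumin gene, lay between 14.47 and 14.78 in tumours and between 14.63 and 14.66 in controls, near the top of the scale (array maxima 14.58 to 14.84). Of 11 macrophage markers 4 were higher and 1 lower in tumours, of 9 stellate cell markers 4 were higher and 1 lower, and of 9 endothelial markers 2 were higher. Of 4 adipocyte markers, Fabp4 was higher (4.13, limma adjusted p = 0.0014, all tumours above all controls) and Retn lower. The mean level of the macrophage markers was 7.77 to 9.70 in tumours against 8.56 to 9.01 in controls, and that of the stellate cell markers 7.71 to 9.48 in tumours against 7.47 to 8.19 in controls. In bulk tissue, fewer cells of a type and less RNA per cell cannot be told apart, and the part of these differences in the results below was not tested.

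With the ages combined, none of the 32 measured genes was higher in tumours, 7 were lower and 25 did not pass the test (limma, Benjamini-Hochberg adjusted p under 0.05 over all genes). Over all genes 10.3% were called higher and 9.81% were called lower. The number called lower was 1 without both nearly alike controls and ran between 2 (without control 2 at 11 months) and 13 (without tumour 1 at 11 months) with 1 array left out. The 7 genes were Etfa and Etfb of electron transfer, Acadvl, Echs1 and Acaa2 of mitochondrial beta-oxidation, Scp2 of the peroxisome and Acat1 of ketone bodies. Levels and differences here are on the log2 scale of the arrays, where a difference of 1 is a doubling, and every difference is tumour minus control with both ages weighted equally. The median difference of the 32 genes was -0.35, against -0.05 for all genes, and 24 of the 32 (75%) were negative, against 57.5% of all genes. In 4 of the 32 genes all 8 tumours lay below all 5 controls, against 5.07% of all genes, and in none did all tumours lie above, against 6.22% of all genes.

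**Figure D1:**
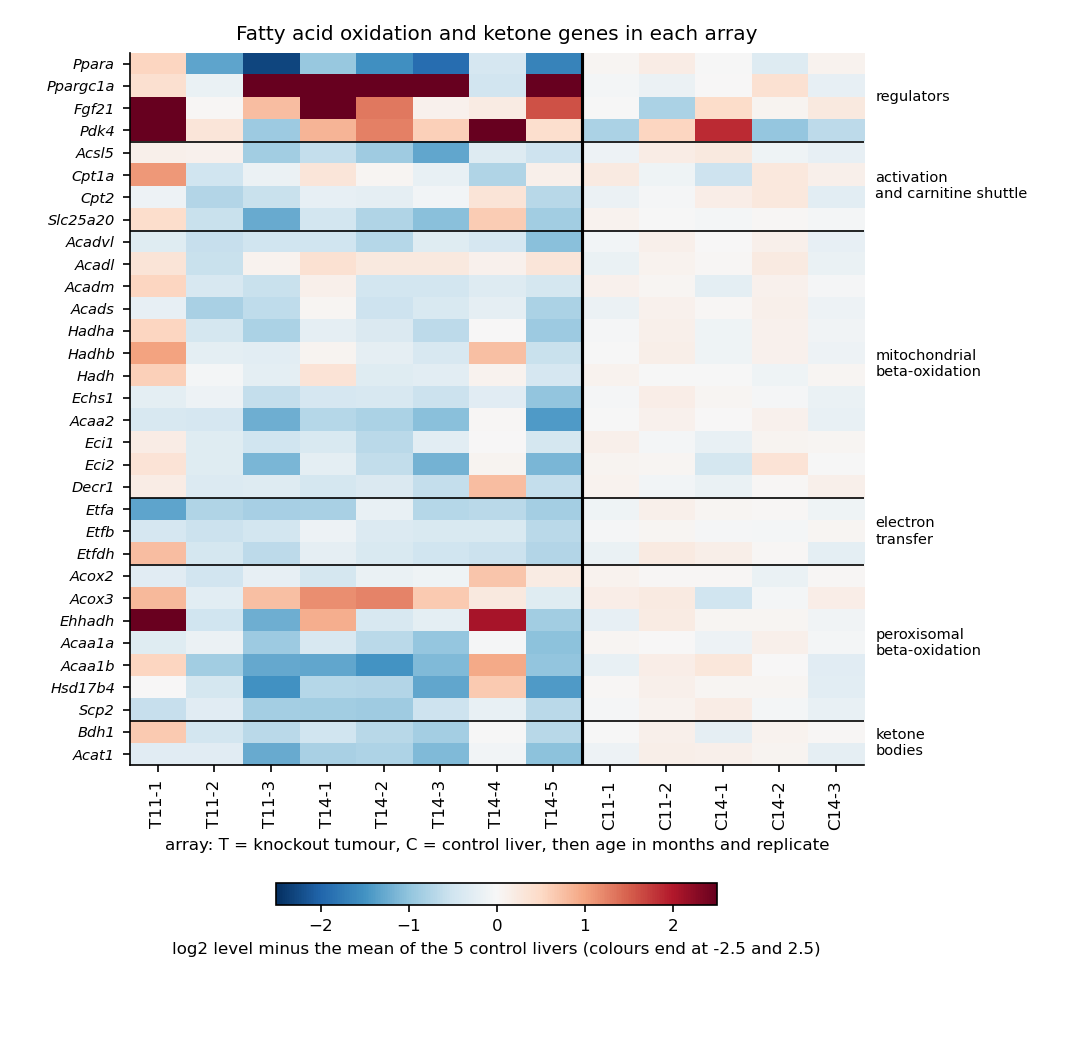
Difference of each array from the mean of the 5 control livers (colour, log2 scale, ends at -2.5 and 2.5) for the 32 genes, in rows by role. Tumours stand left of the black line and controls right of it: most enzyme rows are blue in tumours, and tumour 1 at 11 months (T11-1) and tumour 4 at 14 months (T14-4) hold more red cells than the other tumours.

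**Figure D2:**
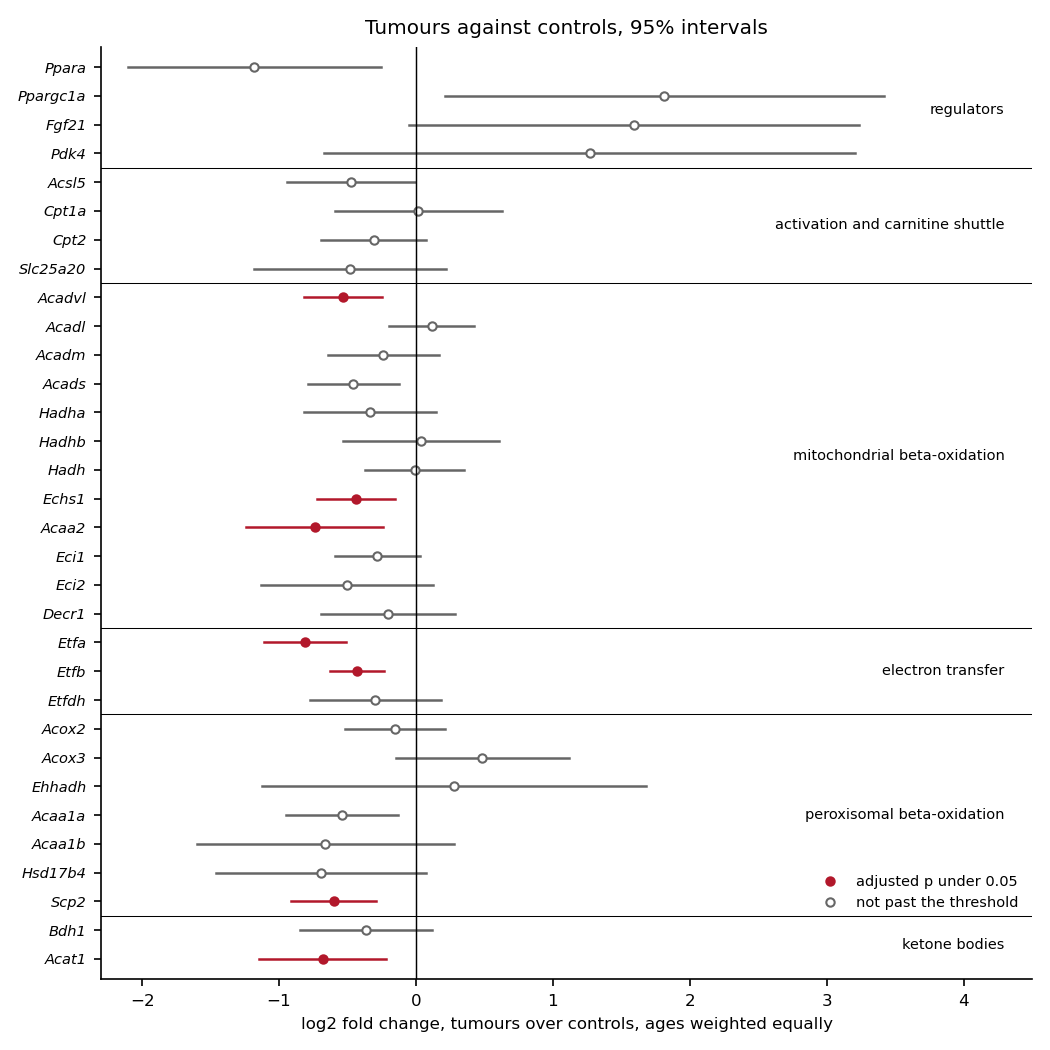
Tumour minus control difference of each gene (points, log2 scale, ages combined) with its 95% confidence interval (bars), grouped by role. The 7 genes past the threshold lie between -0.81 and -0.43, and Ppargc1a, Fgf21 and Pdk4 have the widest intervals.

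The tumours varied more than the controls. Within the ages, the tumour SD exceeded the control SD in 32 of 32 genes, against 72.9% of all genes. The median SD was 0.48 in tumours and 0.15 in controls for these genes, against 0.25 in tumours and 0.16 in controls over all genes.

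The 3 electron transfer genes encode both subunits of the flavoprotein that collects electrons from the acyl-CoA dehydrogenases, and the dehydrogenase that hands them to ubiquinone. Etfa, the alpha subunit, measured 10.70, 11.26 and 11.19 in the 11-month tumours and 11.22, 11.84, 11.31, 11.34 and 11.17 in the 14-month tumours, against 11.91 and 12.15 in the 11-month controls and 12.08, 12.06 and 11.91 in the 14-month controls. Every tumour was below every control, with tumour 2 at 14 months close to the lowest control. The level averaged 11.26 ± 0.31 in tumours (SD, n = 8) and 12.02 ± 0.11 in controls (SD, n = 5). The difference was -0.81 (SE 0.14, limma adjusted p = 0.0029), which is 0.571 of the control level on a linear scale. Without both nearly alike controls it was -0.90 (limma adjusted p = 0.0218).

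Etfb, the beta subunit, measured 11.34, 11.22 and 11.31 in the 11-month tumours and 11.62, 11.41, 11.38, 11.38 and 11.08 in the 14-month tumours, against 11.73 and 11.80 in the 11-month controls and 11.74, 11.72 and 11.81 in the 14-month controls. The groups did not overlap, and the controls lay within a narrow band. The difference was -0.43 (SE 0.09, limma adjusted p = 0.00806), which is 0.742 of the control level on a linear scale. Without both nearly alike controls the difference was -0.44 and no longer passed (limma adjusted p = 0.0595). Etfdh, the ubiquinone-side dehydrogenase, measured 12.07, 10.86 and 10.65 in the 11-month tumours and 11.08, 10.93, 10.80, 10.77 and 10.56 in the 14-month tumours, against 11.14 and 11.53 in the 11-month controls and 11.44, 11.34 and 11.06 in the 14-month controls. Here tumour 1 at 11 months was above every control while 6 of the other 7 tumours were below every control. The difference of Etfdh was -0.30 (SE 0.22, limma adjusted p = 0.347), and without tumour 1 at 11 months it was -0.51 (limma adjusted p = 0.0176). Etfdh passed in this 1 of 24 alternatives only, with limma adjusted p up to 0.634 in the others.

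The promoters of the genes whose groups did not overlap, and of Ehhadh, whose tumours were spread most widely among the enzymes, are shown to give the sequence context. They are RefSeq windows on GRCm38.p6 from 250 bases before to 50 bases after the transcription start, printed 5′ to 3′ in the direction of the gene. Etfa is at chr9:55512194-55512493 (minus strand), Etfb at chr7:43443822-43444121 (plus strand), Acadvl at chr11:70015379-70015678 (minus strand), Scp2 at chr4:108118498-108118797 (minus strand) and Ehhadh at chr16:21787785-21788084 (minus strand). Capitals mark matches, on either strand, to AGGTCA, the letters of a nuclear receptor site, and to CCAAT.
Etfa: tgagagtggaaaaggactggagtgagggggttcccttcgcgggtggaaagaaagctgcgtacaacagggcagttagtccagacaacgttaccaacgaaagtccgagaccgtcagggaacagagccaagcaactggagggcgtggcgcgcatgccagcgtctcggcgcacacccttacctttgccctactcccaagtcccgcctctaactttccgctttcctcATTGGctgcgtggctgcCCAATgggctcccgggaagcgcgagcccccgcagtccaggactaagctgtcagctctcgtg
Etfb: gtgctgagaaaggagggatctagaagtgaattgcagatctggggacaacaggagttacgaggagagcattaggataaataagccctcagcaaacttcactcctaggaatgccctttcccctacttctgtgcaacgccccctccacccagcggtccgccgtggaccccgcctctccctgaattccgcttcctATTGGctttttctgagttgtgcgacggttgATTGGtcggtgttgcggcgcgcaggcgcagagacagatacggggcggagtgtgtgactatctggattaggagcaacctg
Acadvl: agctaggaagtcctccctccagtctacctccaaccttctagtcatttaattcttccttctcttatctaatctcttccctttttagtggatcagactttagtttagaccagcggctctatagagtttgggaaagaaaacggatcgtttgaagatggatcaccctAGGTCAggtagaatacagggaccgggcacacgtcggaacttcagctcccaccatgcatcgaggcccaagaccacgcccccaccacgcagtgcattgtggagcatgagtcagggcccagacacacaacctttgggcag
Scp2: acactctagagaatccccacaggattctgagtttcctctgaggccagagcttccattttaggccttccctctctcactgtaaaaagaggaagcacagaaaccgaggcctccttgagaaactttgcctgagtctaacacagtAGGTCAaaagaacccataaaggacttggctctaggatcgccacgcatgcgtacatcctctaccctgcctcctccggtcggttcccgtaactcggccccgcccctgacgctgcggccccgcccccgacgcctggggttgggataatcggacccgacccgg
Ehhadh: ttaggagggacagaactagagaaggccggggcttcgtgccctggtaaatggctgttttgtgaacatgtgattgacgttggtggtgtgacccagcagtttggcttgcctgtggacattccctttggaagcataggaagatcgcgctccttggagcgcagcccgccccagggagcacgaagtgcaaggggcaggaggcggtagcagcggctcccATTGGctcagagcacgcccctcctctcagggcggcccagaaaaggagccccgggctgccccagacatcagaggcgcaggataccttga
Both flavoprotein subunits hold 2 CCAAT matches each, Acadvl and Scp2 hold 1 AGGTCA match each, and Ehhadh holds 1 CCAAT match. A window was found for 29 of the 34 genes, and these 29 have 32 windows. AGGTCA occurred in 5 of the 32 windows (of Acadm, Acadvl, Cpt1a, Echs1 and Scp2), against 16.3% of 32851 windows in all. CCAAT occurred in 13 of the 32 windows, against 37.4% of all windows. The E-box letters CACGTG occurred in 1 of the 32 windows, of Fgf21, against 7.15% of all windows. The direct repeat AGGNCANAGGNCA, searched on both strands as the letters of a PPARA binding element, was in none of the 29, against 0.381% of all windows, and TCAAGGTCA, the letters of an estrogen-related receptor element, was in none, against 0.423%. TCAAGGTCA contains AGGTCA. A match is a match of letters and was not tested for binding.

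In mitochondrial beta-oxidation, 3 of 12 genes were lower in tumours, none was higher and 9 did not pass the test. Over all genes 9.81% were called lower. The median difference of the 12 was -0.31, and 10 were negative. The dehydrogenases of the first step differ by chain length. Acadvl, which takes very long chains, measured 11.51, 11.24 and 11.30 in the 11-month tumours and 11.30, 11.09, 11.49, 11.38 and 10.75 in the 14-month tumours, against 11.73 and 11.94 in the 11-month controls and 11.83, 11.93 and 11.61 in the 14-month controls. All tumours were below all controls, with tumour 5 at 14 months the lowest. Acadvl averaged 11.26 ± 0.25 in tumours (SD, n = 8) and 11.81 ± 0.14 in controls (SD, n = 5). The difference was -0.54 (SE 0.13, limma adjusted p = 0.0157). It missed the threshold without control 2 at 11 months (-0.48, limma adjusted p = 0.0741), without both nearly alike controls (-0.63, limma adjusted p = 0.0502) and among arrays whose titles carry a number (-0.58, limma adjusted p = 0.0563).

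Acads, the short-chain dehydrogenase, lay just outside the threshold. Its level was 9.17 to 10.04 in tumours and 9.85 to 10.11 in controls, and the difference was -0.46 (SE 0.15, limma adjusted p = 0.0544). Without tumour 1 at 11 months the Acads difference was -0.54 (limma adjusted p = 0.0275), and without tumour 1 at 14 months it was -0.51 (limma adjusted p = 0.0287). Acads passed in 7 of 24 alternatives, with limma adjusted p up to 0.177 in the others. Acadm, the medium-chain dehydrogenase, was 11.96 to 13.06 in tumours and 12.28 to 12.64 in controls (difference -0.24, limma adjusted p = 0.369). It was -0.41 without tumour 1 at 11 months (limma adjusted p = 0.0428). Acadm passed in this 1 of 24 alternatives only, with limma adjusted p up to 0.638 in the others. Acadl, the long-chain dehydrogenase, was 10.39 to 11.31 in tumours and 10.76 to 11.17 in controls. Its difference was 0.11, with a 95% interval of -0.20 to 0.42.

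Echs1, the short-chain hydratase of the second step, measured 11.34, 11.46 and 10.98 in the 11-month tumours and 11.16, 11.19, 11.04, 11.29 and 10.59 in the 14-month tumours, against 11.56 and 11.76 in the 11-month controls and 11.64, 11.55 and 11.41 in the 14-month controls. Of the 8 tumours only tumour 2 at 11 months was above the lowest control. The difference was -0.44 (SE 0.13, limma adjusted p = 0.0373). This call was lost, with limma adjusted p-values of 0.0512 to 0.135, when any 1 of the 5 controls, tumour 3 at 11 months or tumour 3 at 14 months was left out, and it was 0.097 without both nearly alike controls. Acaa2, the mitochondrial thiolase, measured 12.10, 12.09 and 11.28 in the 11-month tumours and 11.80, 11.72, 11.46, 12.53 and 11.09 in the 14-month tumours, against 12.49 and 12.61 in the 11-month controls and 12.51, 12.60 and 12.32 in the 14-month controls. Tumour 4 at 14 months was within the controls and the other 7 tumours were below all of them. The difference was -0.74 (SE 0.23, limma adjusted p = 0.0414), and it was lost, with limma adjusted p-values of 0.0568 to 0.124, when any 1 of the 5 controls, tumour 3 at 11 months or tumour 1, 2 or 3 at 14 months was left out. Without both nearly alike controls the limma adjusted p of Acaa2 was 0.134. Its probe set can pick up related transcripts, as can those of Hadh and Acaa1a, by the suffix of the probe set name. By theirs, the probe sets of Eci2 and Acox2 can pick up several transcripts of the same gene.

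The trifunctional protein, which carries out the later steps for long chains, is built from the products of Hadha and Hadhb. Hadha was 10.16 to 11.60 in tumours and 10.96 to 11.18 in controls, with a difference of -0.33 (SE 0.22, limma adjusted p = 0.288). Hadhb was 11.05 to 12.61 in tumours and 11.48 to 11.76 in controls, with a difference of 0.03 (95% interval -0.54 to 0.60). For both subunits tumour 1 at 11 months was the highest array of the 13. Hadh, the short-chain hydroxyacyl-CoA dehydrogenase, was 12.57 to 13.60 in tumours and 12.89 to 13.08 in controls, with a difference of -0.01 (95% interval -0.37 to 0.35). The auxiliary enzymes handle unsaturated chains. Eci1 and Eci2, which shift double bonds, differed by -0.28 (limma adjusted p = 0.17) and by -0.50 (limma adjusted p = 0.227), and Decr1, the dienoyl-CoA reductase, by -0.20 (limma adjusted p = 0.53).

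**Figure D3:**
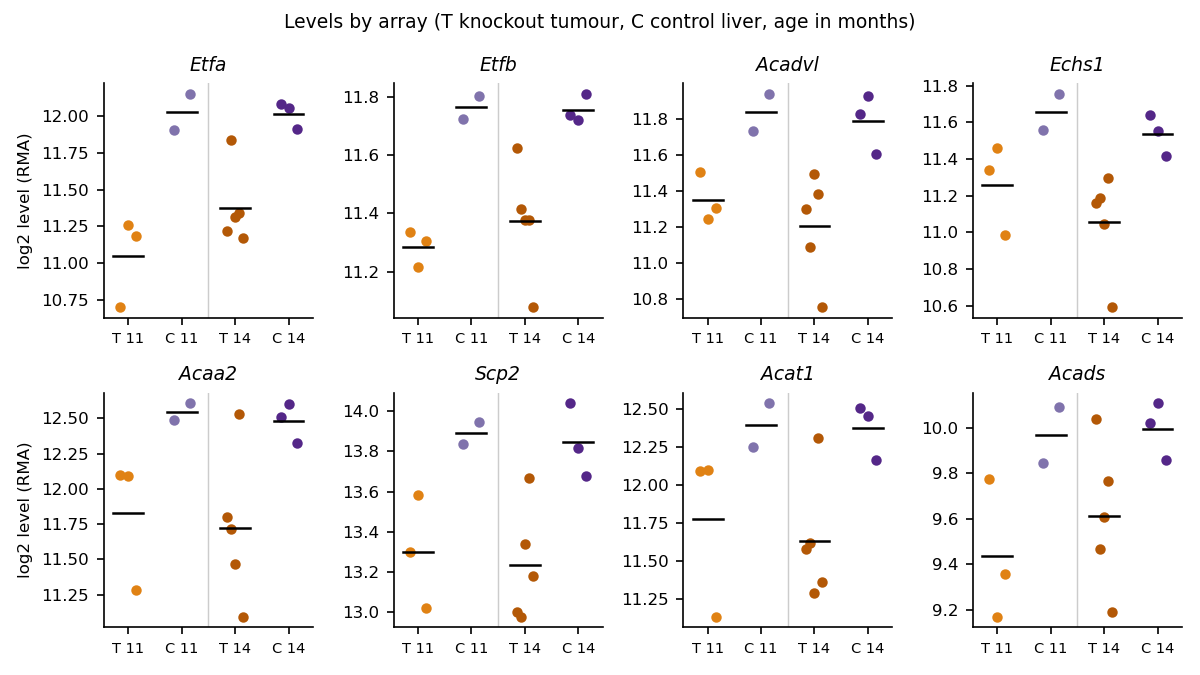
Log2 level of each array (points) and group mean (line) for the 7 genes lower in tumours and for Acads, just outside the threshold. T is knockout tumour, C is control liver, and 11 and 14 are months of age. The tumour and control points do not overlap for Etfa, Etfb, Acadvl and Scp2.

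Of 7 peroxisomal genes, 1 was lower in tumours, none was higher and 6 did not pass the test. Over all genes 9.81% were called lower. The median difference of the 7 was -0.54. Scp2, whose products are a peroxisomal thiolase for branched chains and a sterol carrier protein, measured 13.30, 13.58 and 13.02 in the 11-month tumours and 13.0003, 12.98, 13.34, 13.67 and 13.18 in the 14-month tumours, against 13.84 and 13.94 in the 11-month controls and 14.04, 13.82 and 13.68 in the 14-month controls. In this probe set, though not in every probe set of Scp2, all tumours were below all controls. Tumour 4 at 14 months nearly reached the lowest control. All levels lay near the top of the scale. The difference was -0.60 (SE 0.14, limma adjusted p = 0.0134). It missed the threshold without control 2 at 11 months (-0.58, limma adjusted p = 0.0603) and without both nearly alike controls (-0.67, limma adjusted p = 0.0589).

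Ehhadh, the bifunctional hydratase and dehydrogenase of straight chains, measured 13.62, 10.64 and 9.92 in the 11-month tumours and 12.06, 10.75, 10.91, 13.21 and 10.28 in the 14-month tumours, against 10.93 and 11.34 in the 11-month controls and 11.20, 11.20 and 11.05 in the 14-month controls. Tumours 1 at 11 months, 1 at 14 months and 4 at 14 months were above all controls, and the other 5 tumours were below all controls. The difference was 0.28 (SE 0.64, limma adjusted p = 0.78), and without tumour 1 at 11 months it was -0.28 (limma adjusted p = 0.693). Hsd17b4, the bifunctional enzyme of branched chains, measured 11.78, 11.33 and 10.26 in the 11-month tumours and 11.05, 11.03, 10.48, 12.42 and 10.35 in the 14-month tumours, against 11.81 and 11.90 in the 11-month controls and 11.82, 11.83 and 11.51 in the 14-month controls. Tumour 4 at 14 months was above all controls, tumour 1 at 11 months was within them and the other 6 were below. The difference of Hsd17b4 was -0.69 (SE 0.35, limma adjusted p = 0.175), and without tumour 4 at 14 months it was -0.86 (limma adjusted p = 0.0293). Hsd17b4 passed in this 1 of 24 alternatives only, with limma adjusted p up to 0.342 in the others.

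Acaa1a and Acaa1b encode nearly identical peroxisomal thiolases, so that signal cannot be assigned to one of them with certainty. Acaa1b measured 13.61, 12.19 and 11.78 in the 11-month tumours and 11.77, 11.58, 11.95, 14.01 and 12.08 in the 14-month tumours, against 12.88 and 13.24 in the 11-month controls and 13.35, 13.07 and 12.79 in the 14-month controls. Tumour 1 at 11 months and tumour 4 at 14 months were above all controls and the other 6 tumours were below them. The difference was -0.66 (SE 0.43, limma adjusted p = 0.283), and without tumour 4 at 14 months it was -0.88 (limma adjusted p = 0.0445). Acaa1b passed in this 1 of 24 alternatives only, with limma adjusted p up to 0.497 in the others. Acaa1a was 7.09 to 8.09 in tumours and 7.99 to 8.25 in controls, with a difference of -0.54 (SE 0.19, limma adjusted p = 0.0616). The Acaa1a difference was -0.62 without tumour 2 at 11 months (limma adjusted p = 0.0447) and -0.61 without tumour 4 at 14 months (limma adjusted p = 0.0187). Acaa1a passed in 6 of 24 alternatives, with limma adjusted p up to 0.211 in the others. Both probe sets naming the 2 genes together differed by -0.75 and -0.74, and neither passed the test. Acox2, the oxidase of branched chains and bile acid intermediates, was 10.97 to 12.12 in tumours and 11.27 to 11.52 in controls (difference -0.15, limma adjusted p = 0.527). Acox3, a further branched-chain oxidase, was 5.43 to 6.98 in tumours and 5.24 to 5.95 in controls (difference 0.49, limma adjusted p = 0.242). The lowest Acox3 values are close to the array medians of 5.13 to 5.22, and no detection calls were used.

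Of the 2 ketone body genes, 1 was lower in tumours, against 9.81% of all genes. Acat1, the mitochondrial acetoacetyl-CoA thiolase, measured 12.09, 12.10 and 11.13 in the 11-month tumours and 11.58, 11.62, 11.29, 12.31 and 11.36 in the 14-month tumours, against 12.25 and 12.54 in the 11-month controls and 12.51, 12.45 and 12.16 in the 14-month controls. Tumour 4 at 14 months was within the controls, and the other 7 tumours were below all of them. The difference was -0.68 (SE 0.21, limma adjusted p = 0.0429). The call was lost, with limma adjusted p-values of 0.0559 to 0.146, when any 1 array was left out other than tumours 1 and 2 at 11 months and tumour 4 at 14 months. It was 0.108 without both nearly alike controls. Bdh1, which interconverts acetoacetate and beta-hydroxybutyrate, measured 12.01, 10.89 and 10.69 in the 11-month tumours and 10.85, 10.67, 10.50, 11.34 and 10.66 in the 14-month tumours, against 11.34 and 11.48 in the 11-month controls and 11.13, 11.44 and 11.39 in the 14-month controls. All tumours but tumour 1 at 11 months and tumour 4 at 14 months were below the controls. The difference of Bdh1 was -0.36 (SE 0.22, limma adjusted p = 0.253), and without tumour 1 at 11 months it was -0.57 (limma adjusted p = 0.0251). That was the only 1 of 24 alternatives in which Bdh1 passed, with limma adjusted p up to 0.465 in the others.

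None of the 4 measured genes of activation and the carnitine shuttle passed the test. Acsl5, an acyl-CoA synthetase, was 10.41 to 11.83 in tumours and 11.51 to 11.96 in controls (difference -0.48, SE 0.21, limma adjusted p = 0.132). Cpt1a, the carnitine palmitoyltransferase of the outer membrane and the entry step of the shuttle, measured 12.37, 10.79 and 11.15 in the 11-month tumours and 11.59, 11.34, 11.10, 10.53 and 11.41 in the 14-month tumours, against 11.52 and 11.18 in the 11-month controls and 10.77, 11.55 and 11.41 in the 14-month controls. The groups overlapped widely. The Cpt1a difference was 0.02, with a 95% interval of -0.59 to 0.63. Slc25a20, the carnitine carrier, was 9.52 to 11.42 in tumours and 10.72 to 10.86 in controls (difference -0.48, SE 0.32, limma adjusted p = 0.296). Cpt2, the inner membrane transferase, was 9.98 to 11.04 in tumours and 10.44 to 10.99 in controls (difference -0.31, SE 0.17, limma adjusted p = 0.221). The probe set that names Cpt1b together with Chkb and Gm44502 was looked at after its values were seen. It measured 8.63 in tumour 1 at 11 months and 7.60 in tumour 4 at 14 months, and 4.56 to 5.25 in the other tumours, against 5.18 to 5.47 in controls. Which of the 3 genes gave this signal cannot be told apart, and its levels near the array medians of 5.13 to 5.22 are not shown to be above background. The mean of 6 striated muscle markers was 4.17 to 4.29 in tumours against 4.26 to 4.46 in controls.

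None of the 4 regulators passed the test, and the tumours were spread widely in each. Ppara, the nuclear receptor of the fasting response, measured 11.15, 9.30 and 8.31 in the 11-month tumours and 9.66, 9.08, 8.71, 10.20 and 8.94 in the 14-month tumours, against 10.66 and 10.80 in the 11-month controls and 10.61, 10.29 and 10.71 in the 14-month controls. Tumour 1 at 11 months was above all controls and the other 7 tumours were below all of them. The difference was -1.18 (SE 0.42, limma adjusted p = 0.0678), which is 0.442 of the control level on a linear scale. Without tumour 1 at 11 months it was -1.57 (limma adjusted p = 0.00435), and without tumour 4 at 14 months it was -1.29 (limma adjusted p = 0.0425). Over all alternatives the adjusted p of Ppara ran between 0.00435 and 0.224. The other 2 Ppara probe sets differed by -1.08 and -1.10.

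Ppargc1a, which encodes the coactivator PGC-1alpha, measured 6.70, 6.14 and 9.27 in the 11-month tumours and 9.81, 9.98, 9.56, 5.83 and 8.99 in the 14-month tumours, against 6.25 and 6.16 in the 11-month controls and 6.32, 6.69 and 6.09 in the 14-month controls. Tumour 3 at 11 months and tumours 1, 2, 3 and 5 at 14 months stood well above the controls. Tumour 2 at 11 months was within the control range, tumour 4 at 14 months was below it and tumour 1 at 11 months was at its upper edge. The difference was 1.81 (SE 0.73, limma adjusted p = 0.0988), and without tumour 4 at 14 months it was 2.19 (limma adjusted p = 0.00864). Over all alternatives the adjusted p of Ppargc1a ran between 0.00864 and 0.302, and all 5 of its probe sets had positive differences.

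Fgf21, the hormone gene, measured 10.36, 6.06 and 6.81 in the 11-month tumours and 9.53, 7.34, 6.13, 6.24 and 7.62 in the 14-month tumours, against 6.02 and 5.24 in the 11-month controls and 6.50, 6.10 and 6.28 in the 14-month controls. The level was high in tumour 1 at 11 months and tumour 1 at 14 months, and the lowest tumours lay among the controls. The difference of Fgf21 was 1.60 (SE 0.75, limma adjusted p = 0.148). Pdk4, the kinase that turns pyruvate dehydrogenase off, measured 10.41, 6.28 and 5.06 in the 11-month tumours and 6.82, 7.24, 6.58, 8.97 and 6.40 in the 14-month tumours, against 5.18 and 6.52 in the 11-month controls and 7.85, 5.02 and 5.32 in the 14-month controls. Tumour 1 at 11 months and tumour 4 at 14 months were highest, and control 1 at 14 months came next after them. The difference was 1.27 (SE 0.88, limma adjusted p = 0.318). Control 1 at 14 months also differed from the other controls in clock genes: Dbp, a clock output factor, was 5.66 there and 8.98 to 11.16 in the other controls, and Arntl, a core clock factor, was 8.71 there and 5.37 to 7.39 in the other controls. Dbp was 5.44 to 9.41 in tumours, and its difference was -2.06 (SE 1.12, limma adjusted p = 0.204). Of 17 clock genes 2 were lower in tumours and none was higher: Hlf, a clock output factor, at -2.14 (limma adjusted p = 0.0422, all tumours below all controls) and Nr1d1, a clock repressor, at -1.08 (limma adjusted p = 0.0331). Igfbp1, a fasting-responsive liver gene, was 9.83 to 13.63 in tumours and 9.60 to 11.43 in controls (difference 1.59, limma adjusted p = 0.0683). The part of sampling time or feeding was not tested. Values of Pdk4, Fgf21 and Ppargc1a near the array medians are not shown to be above background.

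**Figure D4:**
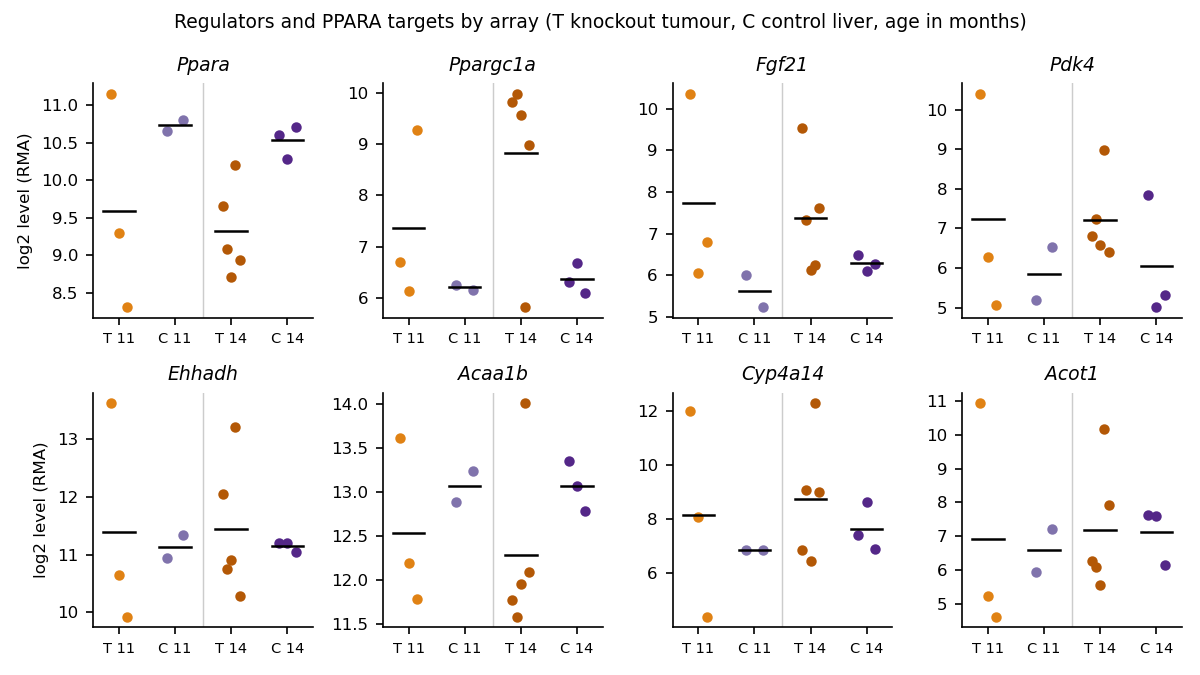
Log2 level of each array (points) and group mean (line) for the 4 regulators, the peroxisomal genes Ehhadh and Acaa1b, and Cyp4a14 and Acot1, which were chosen after their values were seen. T is knockout tumour, C is control liver, and 11 and 14 are months of age. In Ehhadh the tumours lie both above and below the narrow band of controls.

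Set against the range of the 5 controls, the tumours were not alike. Tumour 1 at 11 months had 10 of the 32 genes below the control range, 3 within it and 19 above it. Tumour 4 at 14 months had 12 below, 9 within and 11 above. The other 6 tumours had 18 to 26 genes below the range and 0 to 8 above it. Over all genes, 30.6% to 36.4% were below the control range in each tumour and 21.5% to 30.3% above it. Tumour 1 at 11 months was the highest of the 8 tumours for 15 of the 32 genes, and tumour 4 at 14 months for 10. Over all genes these 2 tumours were highest for 15.1% and 12.7%. Tumour 5 at 14 months was the lowest for 11 genes and tumour 3 at 11 months for 7. Over all genes these were lowest for 13% and 9.22%. The median difference of the genes from the control mean was 0.33 in tumour 1 at 11 months, 0.01 in tumour 4 at 14 months and between -0.70 and -0.31 in the other 6. These are descriptions of single tumours, with no test.

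**Figure D5:**
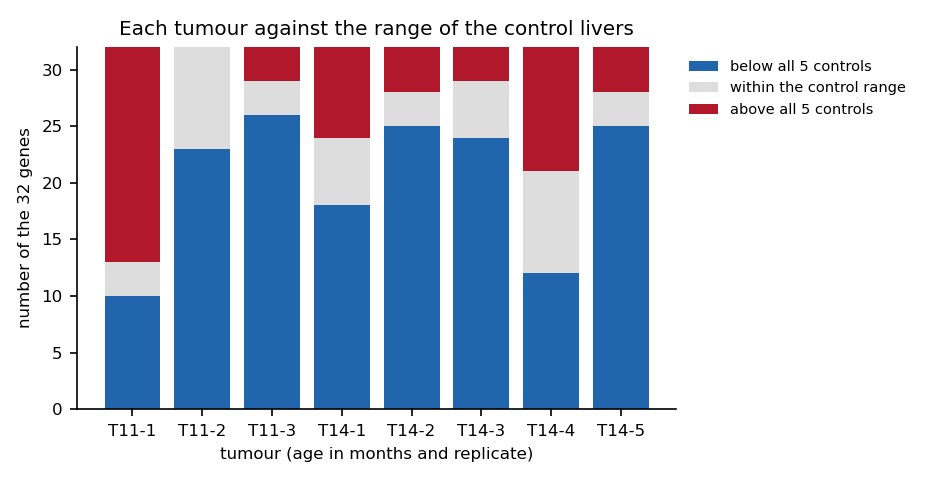
Number of the 32 genes below, within and above the range of the 5 control livers in each tumour (T11 at 11 months, T14 at 14 months). T11-1 has 19 genes above the range and T14-4 has 11, while the other 6 tumours have 18 to 26 below it.

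Etfdh was also highest in tumour 1 at 11 months, whereas Etfa was 10.70 in tumour 1 at 11 months, the lowest of all 13 arrays, while Ehhadh was 13.62 there, the highest of the 13. Of 34 listed PPARA targets and nuclear factors, tumour 1 at 11 months had 15 above the control range, 15 within it and 4 below it. Tumour 4 at 14 months had 14 above, 13 within and 7 below, and tumour 1 at 14 months had 13 above, 13 within and 8 below. The remaining tumours had 6 to 10 above and 11 to 16 below. Over all genes, 25.1% were above the range in tumour 1 at 11 months, 26.5% in tumour 4 at 14 months and 30.3% in tumour 1 at 14 months. Some of the genes that PPARA is known to induce in mouse liver are given here and were chosen after their values were seen. Cyp4a14, a fatty acid omega-hydroxylase, was 12.01 in tumour 1 at 11 months and 12.28 in tumour 4 at 14 months, and 4.40 to 9.10 in the other tumours, against 6.86 to 8.62 in controls. Acot1, a cytosolic acyl-CoA thioesterase, was 10.93 and 10.16 in the same 2 tumours and 4.61 to 7.92 in the others, against 5.95 to 7.62 in controls. Vnn1, a pantetheinase, was 12.996 and 11.64 in these tumours and 6.60 to 10.06 in the others, against 9.22 to 9.93 in controls. In these 3 genes both tumours were above every control. Plin2 was likewise 13.08 and 12.89 in the same tumours and 11.33 to 12.34 in the others, against 11.415 to 12.24 in controls. The pattern was not shared by all targets, as the counts within and below the control range above show. Cyp4a31 and Angptl4 are given as examples. Cyp4a31, a further omega-hydroxylase, was 8.21 and 5.86 in the same tumours and 4.94 to 5.95 in the others, against 5.76 to 6.94 in controls. Angptl4, a lipase inhibitor, was 10.72 and 10.54 in these tumours and 7.53 to 10.16 in the others, against 8.35 to 10.85 in controls.

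The 2 ages were also compared apart. At 11 months 1 of the 32 genes was lower in tumours, Etfa (difference -0.98, SE 0.21, limma adjusted p = 0.046), against 0.61% of all genes called lower. This call was lost with only the arrays of that age (limma adjusted p = 0.344), without both nearly alike controls (limma adjusted p = 0.208), and when any 1 array other than tumour 2 of either age was left out (limma adjusted p = 0.0516 to 0.326). At 14 months 4 were lower, Etfa (-0.64), Acadvl (-0.58), Scp2 (-0.61) and Etfb (-0.38), with limma adjusted p-values of 0.0308 to 0.0434, against 6.88% of all genes called lower. Each of the 4 calls was lost when any 1 of the 3 controls at 14 months was left out (limma adjusted p = 0.0568 to 0.154) and without both nearly alike controls (limma adjusted p = 0.0773 to 0.157). Over all alternatives 16 of 24 kept the call of Etfa, 15 that of Acadvl, 12 that of Scp2 and 9 that of Etfb. None was higher at either age. The difference between the ages passed the test for none of the 32 genes, and for 0% of all genes (limma). At an unadjusted p under 0.05 it counted 0 of these genes and 544 of all genes. Tumours at 14 months against tumours at 11 months gave none of the 32 and 0.0055% of all genes (limma), and at an unadjusted p under 0.05 it counted 0 of these genes and 1139 of all genes. The comparisons share the fit, and 2 controls at 11 months limit the precision there.

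Other genes of the pathway were counted from wider lists. Over all genes 10.3% were called higher and 9.81% lower. Of 25 further genes of a mixed list of carnitine, mitochondrial and acyl-CoA handling, 11 were lower in tumours and none was higher (median difference -0.42). The largest falls were in Nudt7, a coenzyme A hydrolase of peroxisomes and so not a mitochondrial gene (-2.80, limma adjusted p = 0.00317), Echdc1, a proofreading decarboxylase (-1.50, limma adjusted p = 0.0148), and Acadsb, the dehydrogenase of short branched chains (-1.29, limma adjusted p = 0.00179). All 3 were below every control in all 8 tumours. Of 29 further peroxisomal genes, 2 were higher and 8 lower (median difference -0.37). Pxmp2, a peroxisomal membrane channel, fell by 1.73, Hao1, the glycolate oxidase, fell by 1.56 and Pecr, the trans-enoyl-CoA reductase, fell by 1.53, while the membrane protein gene Pxmp4 rose by 1.32 and the coenzyme A hydrolase gene Nudt19 rose by 1.02.

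Of 25 genes of fatty acid uptake, activation and acyl-CoA hydrolysis, 3 were higher and 5 lower (median difference -0.07). Cd36, a fatty acid transporter, rose by 2.20, Acot9, a mitochondrial acyl-CoA thioesterase, rose by 2.01, and Acbd3, a Golgi protein with an acyl-CoA binding domain, rose by 0.48. The medium-chain synthetase genes Acsm5 and Acsm1 fell by 2.36 and by 1.92, and Slc27a5, which activates bile acids and long chains, fell by 1.61. Of 8 further genes of ketone body synthesis, use and transport, 3 were higher and 1 lower. Oxct1, the enzyme with which other organs use ketone bodies and which normal liver holds at low level, rose by 2.60 (SE 0.70, limma adjusted p = 0.0243). Its level was 6.04 to 10.67 in tumours and 5.94 to 6.39 in controls. The monocarboxylate transporter genes Slc16a1 and Slc16a6 rose by 1.39 and by 1.34, and Bdh2, a cytosolic dehydrogenase, fell by 1.79. Slc16a6 was 4.55 to 4.97 in controls, under the array medians of 5.13 to 5.22, so its control levels are not shown to be above background. Of 34 further PPARA targets and nuclear factors, 2 were higher and 3 lower (median difference -0.03), against 10.3% and 9.81% of all genes. Among those past the threshold were Hilpda, a lipid droplet protein, at 1.44 and the pyruvate dehydrogenase kinase Pdk1 at -1.12. Of 17 genes of the fasting and feeding response, 1 was lower, Thrsp, a lipogenic factor (-3.46, limma adjusted p = 0.0191).

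The 32 genes had 60 probe sets, and 17 genes had more than 1. With p-values adjusted over all probe sets, 4 of the 17 had a further probe set past the threshold. The share of all genes with such a further probe set was not computed, so the count only describes these genes. For Scp2 the other 3 differed by -0.62 (limma adjusted p = 0.00807), -1.18 (limma adjusted p = 0.00368) and -0.62 (limma adjusted p = 0.136). For Acaa2 the other 2 differed by -0.71 (limma adjusted p = 0.0326) and -0.92 (limma adjusted p = 0.0209). For Acat1 they differed by -0.62 (limma adjusted p = 0.0699) and -0.92 (limma adjusted p = 0.0381), and for Acaa1a the second differed by -1.10 (limma adjusted p = 0.049). The signs disagreed between probe sets in 4 genes, Cpt1a, Hadhb, Hadh and Acox3, none of which passed the test with any probe set. Etfa, Etfb, Acadvl and Echs1 each had 1 probe set only.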

How the data were processed

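Messenger RNA of 8 tumours and 5 control livers was measured on 13 Affymetrix arrays. The authors deposited log2 values from robust multi-array analysis in Partek software, per the submitters' processing notes. The sources used here do not give its version or background settings. Of 45101 probe sets, 64 array controls were left out, 34945 name 1 gene, 932 several and 9160 none. Each of 18193 genes was read from its probe set with the highest mean, with no filter on level. A group means model was fitted to all arrays with limma 3.58.1 (R 4.3.3), and the combined contrast weighed the ages equally. Benjamini-Hochberg adjustment ran over all genes. The number of arrays limits the precision. Signals were not corrected for related transcripts.

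The members and lists were chosen with earlier results of these data known. All members are reported. From wider lists of the pathway the text names at most 3 rises and 3 falls past the threshold, and from context and marker lists at most 3 genes with the smallest adjusted p, plus Dbp, Arntl, Alb and Igfbp1. Alternatives covered gene summary, normalisation, variance model, array weights, arrays left out, threshold, level filter and the age term. The scripts were tested on simulated data with the same spread in tumours and controls. Figures used Python 3.11.15 and matplotlib 3.10.9.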

Additional observations from a re-analysis of the deposited data

Results flagged for a closer look

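Among the 5 tumours at 14 months, 5 of the 32 genes had 1 tumour far from the other 4, by a gap to its neighbour that took more than 0.71 of the whole range (Dixon's criterion). Chance flags about 1 in 20 groups, or 5%. The share of all genes flagged in these tumours was not computed, so the count only describes these genes. The flags of Ppargc1a, Acaa1b and Decr1 fell on the same tumour and are not independent. Ppargc1a was 5.83 in tumour 4, against 8.99 to 9.98 in the others. Acaa1b was 14.01 in tumour 4, against 11.58 to 12.08 in the others. Decr1 was 12.14 in tumour 4, against 10.77 to 11.01 in the others. Acadm was 12.65 in tumour 1, against 12.07 to 12.20 in the others. Etfa was 11.84 in tumour 2, against 11.17 to 11.34 in the others. Groups of 2 and 3 arrays could not be examined in this way.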

How the results depend on the processing

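Etfa passed in all 24 alternatives in which single genes were followed, Etfb in 23, Scp2 in 22, Acadvl in 21, Echs1 in 14, Acaa2 in 11 and Acat1 in 10, all with the same sign. The number of genes of the list called lower, 7, became 1 without both nearly alike controls, 3 with only arrays whose titles carry a number, 2 at an adjusted p under 0.01, and 2 to 13 with 1 array left out (2 without control 2 at 11 months, 4 without any 1 of the other 4 controls or tumour 3 of either age, 13 without tumour 1 at 11 months, 11 without tumour 4 at 14 months). The number called higher, 0, became 1, Ppargc1a, with array weights, and 0 to 1 with 1 array left out. Over all genes with the ages combined 3657 were called, and 1368 without the nearly alike controls, 1759 with numbered titles only, 1443 at an adjusted p under 0.01 and 1814 to 4359 with 1 array left out. At 11 months 349 were called. This became 232 with tumours 1 and 2 at 14 months averaged, 35 without the nearly alike controls, 55 with numbered titles only, 42 at an adjusted p under 0.01, 0 with only the arrays compared and 21 to 731 with 1 array left out. At 14 months 2775 were called. This became 5659 with array weights, 874 without the nearly alike controls, 249 with numbered titles only, 657 at an adjusted p under 0.01 and 922 to 3537 with 1 array left out. Tumours at 14 against 11 months gave 1, which became 2 with the 2 tumours averaged, 0 with array weights, without the nearly alike controls, with genes above the median level only, at an adjusted p under 0.01 or with only the arrays compared, and 0 to 4 with 1 array left out. The difference between the ages gave 0 to 1 with 1 array left out. Signs of 4 genes near 0 turned. Cpt1a was -0.013 as the mean of its probe sets, -0.016 with the 2 tumours averaged, -0.030 with numbered titles only, -0.0014 with no age term and -0.21 to 0.18 with 1 array left out. Hadhb was -0.048 as the mean of its probe sets, -0.044 with array weights, -0.026 without the nearly alike controls and -0.17 to 0.14 with 1 array left out. Hadh was 0.043 as the mean of its probe sets, 0.035 without the nearly alike controls and -0.13 to 0.077 with 1 array left out, and Ehhadh was -0.28 to 0.64 with 1 array left out. The causes of these changes were not tested, and some of the alternatives also held fewer arrays. No paired analysis was possible because replicates were numbered in sample order and the labels pair no samples. Signal over background limits what can be said of Acox3, Fgf21, Pdk4 and Ppargc1a, whose lowest levels were near the array medians. The same holds for Slc16a6, whose control levels were under the array medians. With a term for numbered titles, 5 members stayed lower.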
